A study of Homo sapiens with 6 samples.

Results

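Intermediate filaments are rope-like polymers of coiled-coil proteins that give a cell tensile strength and position its organelles, and the set of filament genes a cell transcribes is a classical label of its lineage. In the nervous system GFAP marks astrocytes, vimentin and nestin mark progenitors and glioma cells, and neurofilaments fill the axons of neurons, where the light chain NEFL is the core on which NEFM, NEFH and INA assemble. Synemin and nestin are large proteins that join filaments built by vimentin, desmin or GFAP instead of forming filaments alone, desmin belongs to muscle, and peripherin to peripheral neurons.

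Transcripts of 10 such genes, NEFL, NEFM, NEFH, INA, PRPH, GFAP, VIM, NES, SYNM and DES, were examined among the 28395 genes of a bulk RNA-sequencing count table of U251 cells, a human glioblastoma line (U251MG in the sample labels) of astrocytoma origin. The genes were taken by symbol as a family whose WT to NUAK2-CR difference was already known from these counts, so their differences, intervals and calls are given as a description and no p-value is printed for them. The table holds 3 WT libraries and 3 NUAK2-CR libraries, in which the kinase gene NUAK2 was targeted with CRISPR-Cas9, from cells that share line and culture medium. The NUAK2-CR cells carried Cas9 and a guide on GFP and mCherry lentiviral vectors and were sorted for both colours and grown as clones. A supplementary legend of the study names a single clone for its gene set analysis of U251 cells, the labels of the libraries name none, and no source used here gives a vector for the WT cells, so targeting of NUAK2, clonal origin and vector cannot be told apart in this design. Nothing in the labels says that the 3 libraries of a group came from separate cultures, so p-values measure only the spread between these libraries.

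Library totals ranged from 29648445 to 55574081 counts on genes. NUAK2 itself (gene 81788, chromosome 1) measured 1926, 1457 and 1580.1 normalized counts in the WT libraries against 799, 961 and 849 in the NUAK2-CR libraries (log2 fold change -0.93, standard error 0.11), where normalized means scaled to the average effective size of the 6 libraries. Of the astrocyte genes that define the labelled origin, GFAP and SOX9 were abundant, whereas AQP4 had 2 counts in each WT library and 0 in each NUAK2-CR library. In bulk RNA, fewer cells of a kind and less RNA per cell cannot be told apart.

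RefSeq promoter windows of GRCh38.p14 were matched for 5 of the 10 genes, and these 5 are printed. As described below, nestin and vimentin were lower, peripherin higher, synemin little different and INA without reads. NEFL and GFAP, which had the largest fold differences of the family, had no window, so the strongest responses are not covered. Each line gives the 150 bases before the annotated start, 5′ to 3′ on the strand of the gene, from chr1:156677408-156677557 (minus strand) for NES, chr10:17228091-17228240 for VIM, chr12:49294997-49295146 for PRPH, chr15:99104930-99105079 for SYNM and chr10:103276988-103277137 for INA (all plus strand). Capitals mark matches to the motifs searched.
NES: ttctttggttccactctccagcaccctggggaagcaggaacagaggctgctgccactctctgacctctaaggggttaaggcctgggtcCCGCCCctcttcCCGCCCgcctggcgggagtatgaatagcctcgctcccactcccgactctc
VIM: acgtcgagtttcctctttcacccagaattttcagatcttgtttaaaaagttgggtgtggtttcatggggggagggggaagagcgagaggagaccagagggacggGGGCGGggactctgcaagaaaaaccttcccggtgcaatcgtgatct
PRPH: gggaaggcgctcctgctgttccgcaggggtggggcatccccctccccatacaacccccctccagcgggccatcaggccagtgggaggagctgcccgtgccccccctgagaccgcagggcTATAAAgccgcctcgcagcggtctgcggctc
SYNM: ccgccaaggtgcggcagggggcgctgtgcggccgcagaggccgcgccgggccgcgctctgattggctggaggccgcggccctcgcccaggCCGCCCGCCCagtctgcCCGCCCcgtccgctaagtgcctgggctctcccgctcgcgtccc
INA: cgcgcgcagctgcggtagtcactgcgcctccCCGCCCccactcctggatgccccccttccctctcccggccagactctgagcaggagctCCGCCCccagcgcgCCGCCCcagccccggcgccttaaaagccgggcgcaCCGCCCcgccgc

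The letters searched on both strands of the 250 bases before the start were TATAAA (the TATA box), TGANTCA (an AP-1 site), TTCNNNGAA (a STAT site), TGACGTCA (a CRE), GGGCGG (the GC box), ATGCAAAT (a POU octamer) and the CArG box. PRPH was the only window of the 5 with TATAAA, which lay from 31 to 26 bases before the start and which 10.7% of the 35116 promoter windows of the same length held. The GC box was present in the NES, VIM, SYNM and INA windows, against 42.6% of all windows, with 4 matches in INA, 4 in SYNM of which 2 overlap and 1 lies upstream of the printed bases, 2 in NES and 1 in VIM. The AP-1 and STAT letters (6.57% of all windows each), the CRE (1.65%), the octamer (1.63%) and the CArG box (1.16%) had no match in these 5 windows. The windows differed in base composition, from 46% G and C in VIM to 78.8% in SYNM, around a median of 58% over all windows. These matches are descriptions of letters and not of bound sites.

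The family split into 5 abundant and 5 scarce transcripts, as the plot of values by library shows. In WT, the lowest library of the abundant group was one of SYNM at 5689 normalized counts, and the highest library of the scarce group was one of NEFM at 70.4. Of the abundant transcripts, NEFL, GFAP, NES and VIM were lower in NUAK2-CR without overlap between groups, in that order of fold, and SYNM overlapped between groups. Among the scarce ones NEFM was lower, PRPH was higher, and NEFH, DES and INA had too few reads to pass the filter on low counts.

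**Figure D1:**
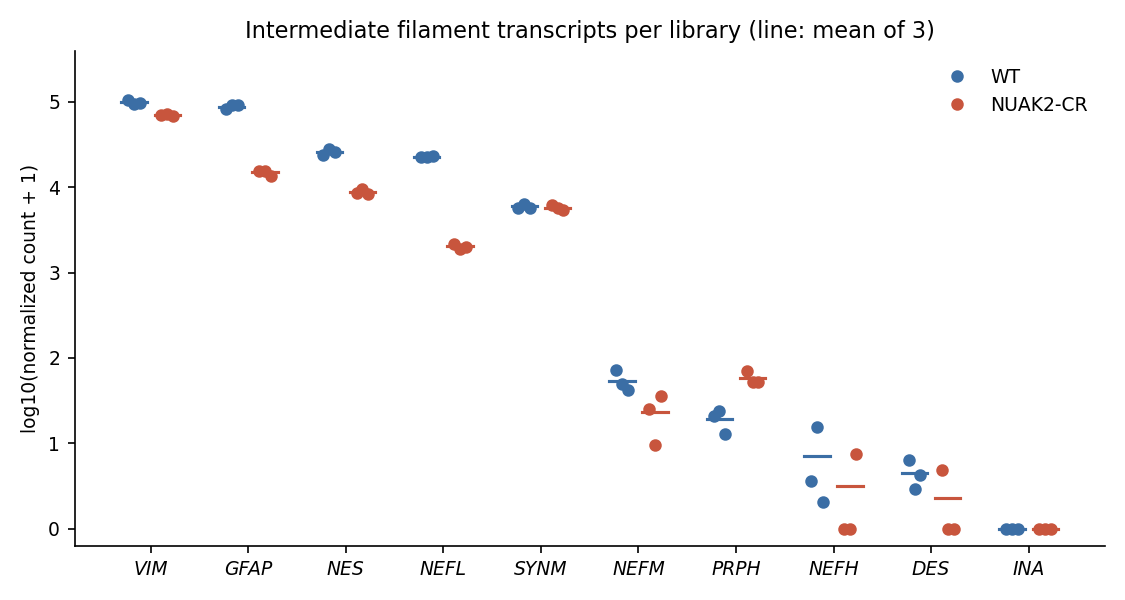
Normalized counts of the 10 genes on a scale of log10(normalized count + 1), with a point for each of the 3 WT and 3 NUAK2-CR libraries and a line at the log10 of the mean plus 1. NEFL shows the widest gap between the groups, VIM and GFAP start at a similar height in WT but separate in NUAK2-CR, PRPH is the only gene with all NUAK2-CR points above all WT points, and INA lies at 0 in all 6 libraries.

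Of the 10 genes, 7 passed the filter and were fitted together with all 14873 tested genes. Among these 7, 5 were called lower (NEFL, NEFM, GFAP, VIM and NES) at an adjusted p-value under 0.05, against 28.2% of all genes tested, 1 was called higher (PRPH), against 26.3%, and 1 was not called (SYNM). With an absolute log2 fold change over 2 in addition, NEFL and GFAP met the definition of a differentially expressed gene, against 2.83% of tested genes on the lower side. The groups did not overlap for 6 of the 7, against 61.4% of tested genes. The difference between groups chose the family, so nothing is read from these counts. The median log2 fold change of the 7 was -1.24, beside -0.01 over all tested genes. NEFM passed the filter with 3 WT libraries and 2 NUAK2-CR libraries over its cutoff, and the other 6 with all libraries of both groups.

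NEFL (gene 4747, chromosome 8, 24950955 to 24956612), the neurofilament light chain, had the largest fold difference of the family. The WT libraries held 22391, 22627 and 23229 normalized counts (replicates 1 to 3) and the NUAK2-CR libraries 2185, 1880.2 and 2011. The WT libraries had a coefficient of variation of 1.90% and every one stood far above every NUAK2-CR library. The mean went from 22749 ± 432 (SD, n = 3) to 2026 ± 153 (SD, n = 3), or 8.90% of WT, a log2 fold change of -3.49 (standard error 0.08, 95% interval -3.66 to -3.32). Of all tested genes, 1.11% had a lower log2 fold change.

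NEFM (gene 4741, chromosome 8, 24913761 to 24919093), the medium chain, starts 37.19 kb from NEFL on the opposite strand and is its nearest tested gene. It had only 106, 50 and 38 reads in WT and 19, 7 and 32 in NUAK2-CR. Scaled for depth these were 70.4, 48.2 and 40.8 against 24.1, 8.44 and 35.1 normalized counts, so the lowest WT and the highest NUAK2-CR library lay close together without overlapping. The log2 fold change was -1.24 (standard error 0.43, 95% interval -2.18 to -0.29). It was not called at an adjusted p-value under 0.05 when WT replicate 1 (log2 fold change -0.96), NUAK2-CR replicate 1 (-1.26) or NUAK2-CR replicate 2 (-0.85) was left out. Per kilobase of transcript NEFL exceeded NEFM by 290-fold, 428-fold and 519-fold in WT replicates 1 to 3 and by 82.7-fold, 203-fold and 52.3-fold in NUAK2-CR replicates 1 to 3. The smallest of these gaps between the neighbouring genes was 52.3-fold.

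The remaining neurofilament partners were close to absent. NEFH (gene 4744, chromosome 22, 29480218 to 29491390), the heavy chain, had 4, 15 and 1 reads in WT and 0, 0 and 6 in NUAK2-CR, and the groups overlapped. INA (gene 9118, chromosome 10, 103277138 to 103290346), which encodes alpha-internexin, had 0 reads in all 6 libraries. A count of 0 still allows up to 3 counts in a library, which covers counting error only. NEFL was thus transcribed in WT cells with NEFM at a trace level, NEFH in single to low double digits of reads and no read of INA.

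PRPH (gene 5630, chromosome 12, 49295147 to 49298686), peripherin, was the only gene of the family called higher in NUAK2-CR. Its read counts were 30, 24 and 11 in WT and 54, 42 and 47 in NUAK2-CR, although the NUAK2-CR libraries were shallower. The normalized counts were 19.9, 23.2 and 11.8 against 68.6, 50.7 and 51.6, with the lowest NUAK2-CR library above the highest WT library. The log2 fold change was 1.61 (standard error 0.35, 95% interval 0.85 to 2.37), at a level that remained under 1 RPKM (reads per kilobase of transcript, scaled to library size) in the mean of either group. PRPH overlaps TROAP-AS1 on the opposite strand, a noncoding gene with 50, 13 and 15 reads in WT and 56, 43 and 29 in NUAK2-CR and a log2 fold change of 1.27. The counting settings are described as defaults and no strand setting is named, so reads of these genes cannot be told apart with certainty.

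GFAP (gene 2670, chromosome 17, 44903159 to 44915500), the astrocyte filament protein, reached 81979.6, 91429.5 and 91559 normalized counts in the WT libraries and 15701, 15568 and 13682 in the NUAK2-CR libraries. Every WT library lay far above every NUAK2-CR library. The mean went from 88323 ± 5494 (SD, n = 3) to 14984 ± 1129 (SD, n = 3), or 5.89-fold lower, a log2 fold change of -2.56 (standard error 0.08, 95% interval -2.74 to -2.38). GFAP remained abundant in NUAK2-CR cells in spite of this. Per length it ranked 105 of 13130 ranked genes in WT and 850 in NUAK2-CR. The gene DNAAF19 overlaps it and had a log2 fold change of -1.25, with a WT mean of 758 ± 57.5 normalized counts (SD, n = 3).

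NES (gene 10763, chromosome 1, 156668763 to 156677407), nestin, measured 24008, 27733 and 26078 normalized counts in the WT libraries against 8647, 9488 and 8337 in the NUAK2-CR libraries. The groups were far apart relative to their spread, which was 7.19% of the mean in WT and 6.75% in NUAK2-CR. NES stood at 34.0% of WT, a log2 fold change of -1.56 (standard error 0.08, 95% interval -1.73 to -1.39).

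VIM (gene 7431, chromosome 10, 17228241 to 17237593), vimentin, was the most abundant of the 10 genes in both groups. WT libraries held 105812, 95569.8 and 97830.1 normalized counts and NUAK2-CR libraries 71205, 72879.8 and 69238, without overlap. At 71.3% of WT the difference was the smallest of the genes called lower, with a log2 fold change of -0.49 (standard error 0.07, 95% interval -0.63 to -0.35). VIM ranked 18 of 13130 genes per length in WT and 30 in NUAK2-CR. The antisense gene VIM-AS1 overlaps it with at most 59 reads in a library, that with 159297 reads of VIM.

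SYNM (gene 23336, chromosome 15, 99105080 to 99141767), synemin, measured 5689, 6445 and 5737 normalized counts in the WT libraries against 6119, 5683 and 5357 in the NUAK2-CR libraries. The ranges of the groups overlapped. The log2 fold change was -0.06 with a 95% interval from -0.22 to 0.11, which leaves room for a difference of up to that size in either direction. TTC23 overlaps it on the opposite strand with 814 to 2017 reads a library, a fraction of the 4712 to 8564 reads of SYNM. DES (gene 1674, chromosome 2, 219418377 to 219426734), desmin, had 8, 2 and 3 reads in WT and 3, 0 and 0 in NUAK2-CR, so abundant synemin stood beside desmin at or near the floor of 3 counts.

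**Figure D2:**
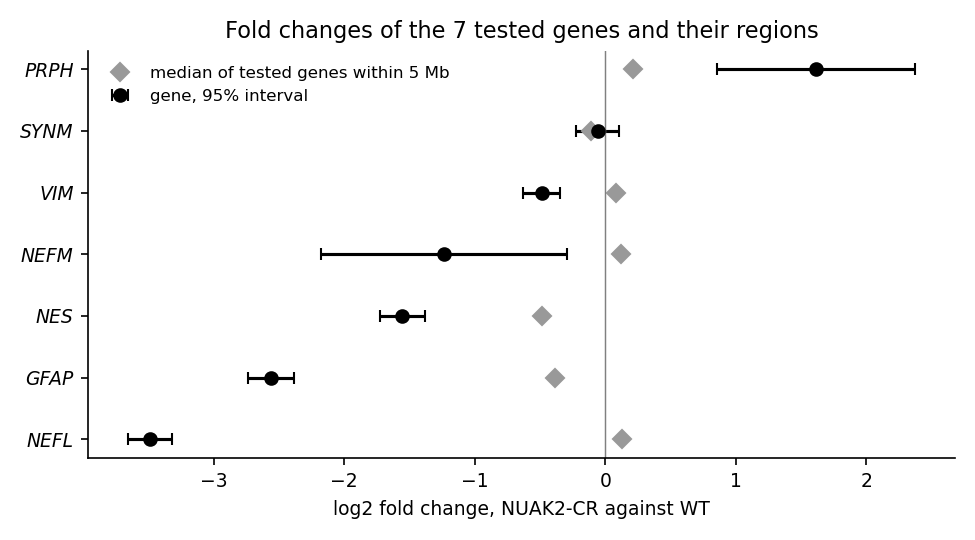
Log2 fold change of NUAK2-CR against WT for the 7 tested genes (points) with 95% intervals from the edgeR fit (bars), and the median of the tested genes that start within 5 Mb of each gene (grey diamonds). NEFL and GFAP lie below -2, the interval of SYNM includes 0, PRPH lies above 0, and the regional medians stay between -0.49 and 0.21.

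Levels were compared between genes after division by the length of the MANE Select transcript, the reference transcript chosen jointly by RefSeq and Ensembl. In WT the order in RPKM was VIM at 1234 ± 66.6, GFAP at 428 ± 26.6, NEFL at 169 ± 3.21, NES at 124 ± 8.94 and SYNM at 21.6 ± 1.54 (SD, n = 3), and no neighbours in this order overlapped. In NUAK2-CR it was VIM at 880.1 ± 22.6, GFAP at 72.6 ± 5.47, NES at 42.3 ± 2.85, SYNM at 20.7 ± 1.39 and NEFL at 15.1 ± 1.14 (SD, n = 3). NEFL therefore moved from the third place to the fifth, below SYNM. Below these, the means of PRPH (0.27 RPKM) and NEFM (0.43) in WT lay in the reverse order of PRPH (0.84) and NEFM (0.18) in NUAK2-CR. The WT ranges of these scarce genes overlapped, with PRPH up to 0.343 and NEFM down to 0.333, though NEFM was higher within each WT library. In NUAK2-CR they did not overlap. The order of GFAP and NES in NUAK2-CR depended on the length used. With the union of all annotated exons, NES at 42.3 RPKM lay above GFAP at 35.6 there.

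**Figure D3:**
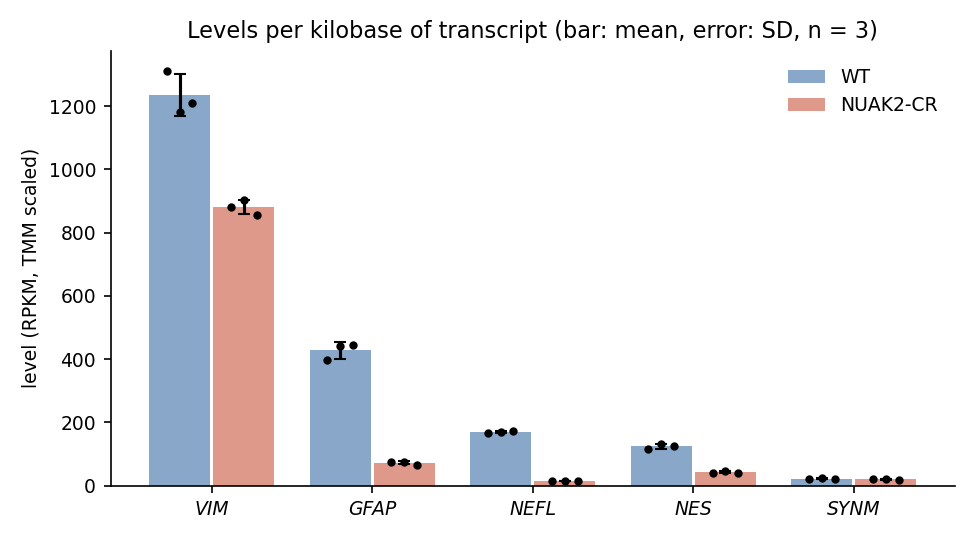
Level of the 5 abundant genes in RPKM on a linear axis, with bars for the mean of 3 libraries, error bars for the SD and a point per library. The VIM bars are 1234 and 880.1 RPKM, the GFAP bars 428 and 72.6, and the SYNM bars 21.6 and 20.7 in WT and NUAK2-CR.

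The summed level of the 10 genes was 1978 ± 29.6 RPKM in WT and 1032 ± 30.4 in NUAK2-CR (SD, n = 3), or 52.2% of WT, and its composition differed. Vimentin made up 62.4% ± 2.43 of the sum in WT and 85.3% ± 0.48 in NUAK2-CR, GFAP 21.7% ± 1.64 and 7.03% ± 0.35, NEFL 8.56% ± 0.24 and 1.46% ± 0.13, and NES 6.28% ± 0.54 and 4.09% ± 0.17 (SD, n = 3). The VIM level was 3.30, 2.67 and 2.73 times that of GFAP in WT replicates 1 to 3 and 11.6, 11.96 and 12.9 times in NUAK2-CR replicates 1 to 3. GFAP and NES both fell in NUAK2-CR but not in proportion, since GFAP exceeded NES 3.45 ± 0.11-fold in WT and 1.72 ± 0.10-fold in NUAK2-CR (SD, n = 3). These shares and ratios rest on 1 transcript length per gene, and with the union of all annotated exons the share of VIM was 50.2% in WT and 76.6% in NUAK2-CR. With that union the GFAP level was 1.69 times that of NES in WT and 0.84 times in NUAK2-CR, so GFAP no longer exceeded NES in NUAK2-CR.

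Genomic position was compared next, within 5 Mb and over whole chromosomes. Within 5 Mb of GFAP, the median log2 fold change of 169 other tested genes was -0.39, with 97 called lower and 21 higher. Around NES, 147 genes had a median of -0.49, with 93 called lower and 14 higher, and its nearest tested genes BCAN and CRABP2 had -1.51 and -1.07. The medians over all tested genes of the chromosomes were similar, -0.38 for chromosome 17 and -0.43 for chromosome 1, so the lower values were not particular to these windows. Less the regional median, GFAP stood at -2.17 and NES at -1.07. In contrast, the 63 tested genes around NEFL had a median of 0.12, with 23 called higher and 14 lower, beside a median of 0.30 over chromosome 8, and less the window median NEFL stood at -3.61. The tested genes that flank the neurofilament pair, DOCK5 and ADAM28, had -0.47 (adjusted p = 0.00393, edgeR) and -0.15 (adjusted p = 0.758, edgeR). VIM lay among 34 tested genes with a median of 0.08 and stood at -0.57 relative to them, PRPH among 135 with 0.21 and stood at 1.40, and SYNM among 25 with -0.11 and stood at 0.05. The nearest tested genes of the others were KIF18B (-0.67) beside GFAP and DNAAF19, HACD1 (0.71) beside VIM and VIM-AS1 (-0.56), TROAP (-0.54) beside PRPH and TROAP-AS1, and IGF1R (-0.47) and TTC23 (-0.22) beside SYNM. Beside the 3 genes that were not tested lay AP1B1 (-0.24) and THOC5 (-0.09) for NEFH, PCGF6 (-0.20) and RPEL1 for INA, and DNPEP (-0.05) and SPEG (0.85) for DES. The part of these chromosome and window shifts in the values of GFAP and NES was not tested.

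**Figure D4:**
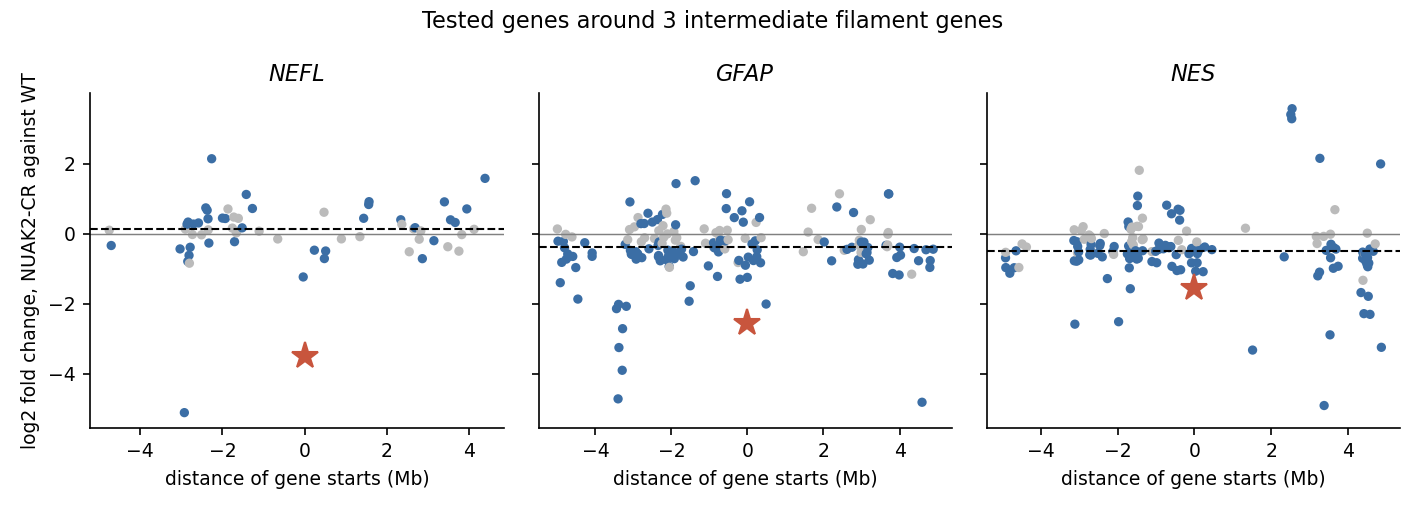
Log2 fold change of the tested genes that start within 5 Mb of NEFL, GFAP and NES, against the distance between gene starts in Mb (blue, adjusted p-value under 0.05; grey, not called), with the named gene as a red star and the regional median as a dashed line. The dashed line lies at 0.12 for NEFL, -0.39 for GFAP and -0.49 for NES, and a column of low points near -3.4 Mb in the GFAP panel is a group of keratin genes.

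Across the 6 libraries, among tested genes averaging 100 or more normalized counts in either group, those whose centred profile lay nearest to that of NEFL included ST8SIA2 and LINC00052, at Euclidean distances of 0.24 and 0.28 on the log2 scale among 12055 candidates. Their log2 fold changes were -4.26 and -7.60, beside -3.49 for NEFL, and LINC00052 was near the floor in NUAK2-CR. For SYNM, the family member with the highest log2 fold change at that level, the nearest were ITSN1, NOTCH2 and ZC3H11A at distances of 0.05, 0.06 and 0.06, with log2 fold changes from -0.06 to -0.04. The profiles were taken as log2(CPM + 0.5), which shrinks the differences of genes with few reads in a group, such as LINC00052 with 0, 0 and 2 reads in NUAK2-CR.

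Other genes of the filament system were then examined in lists chosen by name, with earlier results of these data known. Each gene was tested by edgeR's quasi-likelihood test with Benjamini-Hochberg adjustment over all 14873 genes. The genes named from a list are mostly its largest called folds, so their adjusted p-values describe them and are not independent support. Of all genes tested, 26.3% were called higher and 28.2% lower, the background for the counts that follow. The plot of the lists shows each gene.

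**Figure D5:**
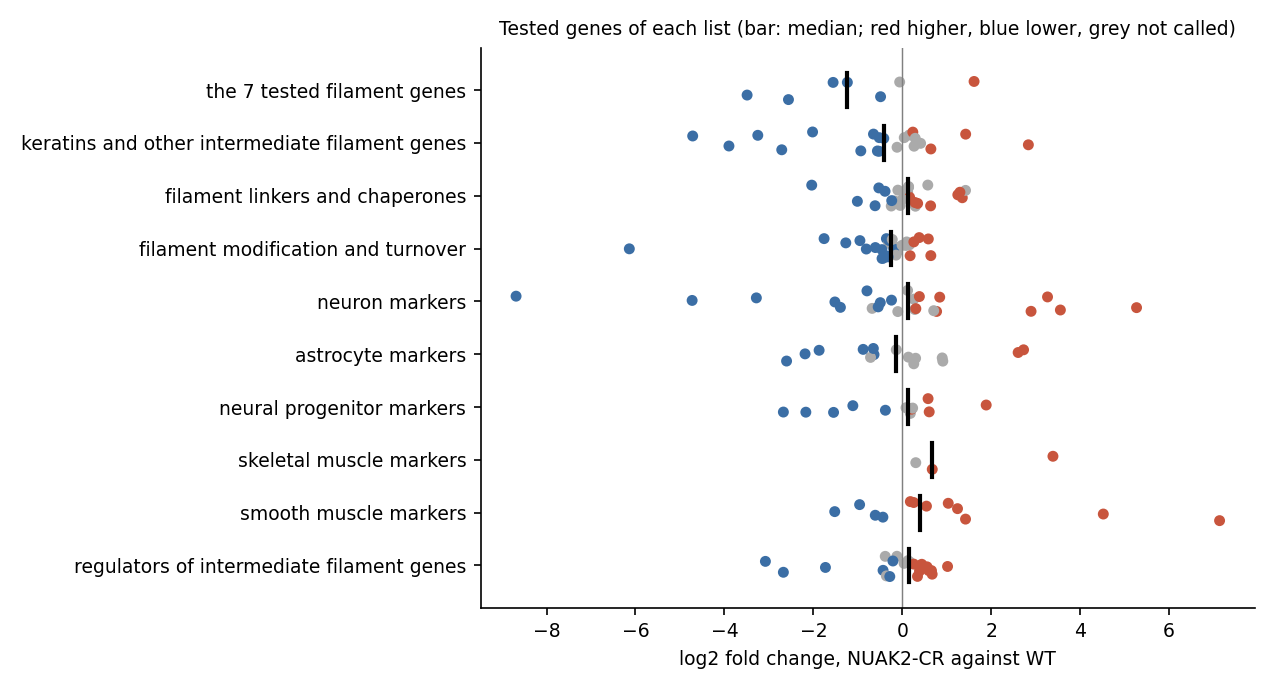
Log2 fold change of each tested gene of the lists, with 1 row of points per list, red for called higher, blue for called lower and grey for not called, and a black bar at the list's median. The medians are -1.24 for the 7 tested filament genes and -0.42 for keratins and other filament genes, and the other lists have medians from -0.24 to 0.67 with genes on both sides except for skeletal muscle, of which 3 genes were tested.

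Keratins, the epithelial filament proteins, were part of a list of 36 lamin, keratin and other filament genes, of which 21 were tested, 11 called lower and 4 higher, with a median log2 fold change of -0.42. KRT13, a keratin of stratified mucosa, averaged 376 ± 44.3 normalized counts in WT and 14.2 ± 7.13 in NUAK2-CR (SD, n = 3), at a log2 fold change of -4.71 (adjusted p = 3.62e-08, edgeR). KRT19, a keratin of simple epithelia, had -3.25 (adjusted p = 3.87e-07, edgeR) and KRT16, which epidermis makes after injury, -3.90 (adjusted p = 6.9e-06, edgeR), the latter with 4, 2 and 6 reads in NUAK2-CR. KRT6B, the partner of KRT16 in stressed epidermis, rose, with means of 14.6 ± 2.87 and 106 ± 22.5 (SD, n = 3) and a log2 fold change of 2.84 (adjusted p = 7.86e-06, edgeR). Split by chromosome after the values had been seen, all 6 tested keratins of the list on chromosome 17 (KRT10, KRT13, KRT15, KRT16, KRT17 and KRT19) were called lower, with log2 fold changes from -4.71 to -0.65. Of the 8 tested on chromosome 12, 4 were called higher, 1 lower and 3 not called, with a median of 0.35. The chromosome 17 keratins lie within 5 Mb of GFAP, on a chromosome with a median of -0.38. Keratin genes resemble each other in sequence, so reads shared between them make single values uncertain.

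Linkers bind filaments to junctions and other cytoskeletal fibres, and chaperones keep them from aggregating. Of 28 such genes, 25 were tested, 7 called higher and 6 lower, with a median log2 fold change of 0.12. These shares, 28% and 24% of the tested genes, lay near the 26.3% and 28.2% of all genes tested. PLEC, encoding the cytolinker plectin that anchors vimentin and GFAP, rose, with means of 13176.5 ± 1204 and 33582 ± 4823 normalized counts (SD, n = 3) and a log2 fold change of 1.35 (adjusted p = 3.55e-07, edgeR). PPL, the plakin periplakin, had 1.30 (adjusted p = 1.3e-05, edgeR) and CRYAB, the small heat shock protein that accompanies GFAP in astrocytes, 1.25 (adjusted p = 0.00015, edgeR). PKP3, a desmosomal plakophilin, fell with a log2 fold change of -2.04 (adjusted p = 2.11e-06, edgeR).

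Enzymes that modify, cut or degrade filament proteins were all tested, 30 of 30, with 14 called lower and 5 higher and a median of -0.24. PADI2, a deiminase that converts arginines of GFAP and vimentin to citrulline, averaged 18984 ± 1029 normalized counts in WT and 269 ± 27.7 in NUAK2-CR (SD, n = 3), 70.6-fold lower, with -6.14 as log2 fold change (adjusted p = 1.08e-12, edgeR), and its neighbour PADI3 had -1.76 (adjusted p = 6.06e-09, edgeR). PLK1 and AURKB, mitotic kinases that phosphorylate vimentin during division, had -1.27 (adjusted p = 3.28e-08, edgeR) and -0.95 (adjusted p = 8.91e-07, edgeR).

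Transcription factors with reported roles at filament genes numbered 28, of which 22 were tested, 10 called higher and 6 lower, with a median of 0.15. POU3F2, a neural POU factor that acts on the nestin enhancer, averaged 4342 ± 136 normalized counts in WT and 681 ± 77.0 in NUAK2-CR (SD, n = 3), with -2.67 as log2 fold change (adjusted p = 3.45e-10, edgeR). SNAI1 and MEF2C, regulators of mesenchymal transition and of muscle and neuron genes, had -3.08 (adjusted p = 3.12e-05, edgeR) and -1.73 (adjusted p = 3.96e-06, edgeR). ZEB1, another mesenchymal regulator, had 1.02 (adjusted p = 9.73e-07, edgeR).

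Markers of the lineages that the filament genes label moved in both directions. Of 19 astrocyte markers other than GFAP, 15 were tested, 6 called lower and 2 higher, with a median of -0.14. S100B, a calcium-binding protein, had -2.60 (adjusted p = 4.07e-05, edgeR) and SLC1A2, a glutamate transporter, -2.19 (adjusted p = 8.08e-05, edgeR), whereas AGT, encoding angiotensinogen, had 2.73 (adjusted p = 3.51e-09, edgeR) and MLC1, an astrocyte membrane protein, 2.61 (adjusted p = 2.71e-09, edgeR). The defining markers AQP4 and GJB6 had at most 3 counts in any library. Summed over the list the astrocyte markers ranged from 924 to 1112 CPM (counts scaled to library size) in WT and from 881 to 908 in NUAK2-CR.

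Of 28 neuron markers, 23 were tested, 9 called lower and 8 higher, with a median of 0.12. BASP1, a growth cone protein, went from 2655 ± 209 (SD, n = 3) normalized counts to 0, 8 and 8 reads, a log2 fold change of -8.68 (adjusted p = 1e-10, edgeR), and SNCG, encoding gamma-synuclein, to 3, 4 and 4 reads, with -4.73 (adjusted p = 3.05e-07, edgeR). SNAP25, of the vesicle fusion machinery, rose by a log2 fold change of 3.56 (adjusted p = 2.49e-09, edgeR), and STMN2, a neuronal regulator of microtubules, by 5.27 (adjusted p = 5.87e-06, edgeR) from 2, 5 and 0 reads in WT to 67, 55 and 88 in NUAK2-CR. With a library at 0 in BASP1, STMN2 and LINC00052, the size of their fitted values depends on the prior count. The list summed to between 6311 and 6593 CPM in WT and between 3250.4 and 3390.2 in NUAK2-CR. DPYSL3 made up most of that difference, with 127723 normalized counts in WT and 44693.5 in NUAK2-CR, followed by MAP1B with 33664 and 12836, and ELAVL4 had no read in any library.

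Neural progenitor markers other than nestin numbered 19, of which 13 were tested, 5 called lower and 4 higher, with a median of 0.12. With any single library left out, only 2 or 3 were called higher. Beside POU3F2, PTPRZ1, a receptor phosphatase of radial glia, had -2.17 (adjusted p = 1.01e-05, edgeR) and CD44, the hyaluronan receptor, -1.55 (adjusted p = 3.81e-08, edgeR), while EMX2, a cortical homeobox gene, had 1.89 (adjusted p = 3.59e-05, edgeR). The list summed to between 3222 and 4067 CPM in WT and between 1387 and 1437 in NUAK2-CR, a difference carried mostly by CD44, with 121881 and 41756 normalized counts. SOX1, HES5, OLIG1 and OLIG2 had at most 3 counts in any library.

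Muscle markers were read beside desmin. Of 20 skeletal muscle genes 3 passed the filter and 2 were called higher, with summed levels from 6.68 to 8.20 CPM in WT and from 9.28 to 11.1 in NUAK2-CR. MYOD1, MYF5, MYF6 and MYOG had at most 3 counts in any library, and TNNT1 rose by a log2 fold change of 0.67 (adjusted p = 0.00349, edgeR). The other skeletal muscle gene called higher had a log2 fold change over 2. Of 15 smooth muscle genes 12 were tested, 8 called higher and 4 lower, with a median of 0.40 and with ACTG2 and ACTA2, the smooth muscle actins, at 7.14 (adjusted p = 1.08e-12, edgeR) and 4.52 (adjusted p = 1.07e-11, edgeR). LMOD1, an actin nucleator, had 1.42 (adjusted p = 0.00078, edgeR) and CNN1, encoding calponin, -1.52 (adjusted p = 0.000393, edgeR). The smooth muscle list summed to between 1789 and 1826 CPM in WT and between 2405 and 2468 in NUAK2-CR, whereas DES remained at 3, 0 and 0 reads there. The part of these lineage markers in the values of the filament genes was not tested.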

How the data were processed

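Raw gene-level counts were deposited by the authors. They came from Trimmomatic, then HISAT2 alignment on hg38, then featureCounts, all run with defaults. RNA came from TRIzol extraction and a stranded mRNA kit. Versions, annotation and strand setting are not given in the sources used here. Of 28395 NCBI gene identifiers, 27745 were matched to RefSeq symbols.

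All genes were fitted in R 4.3.3 with edgeR 4.0.16 (filterByExpr, TMM, glmQLFit with a prior count of 0.125, quasi-likelihood F test, Benjamini-Hochberg over 14873 genes). A gene was called at an adjusted p-value under 0.05, and a differentially expressed gene also had an absolute log2 fold change over 2. Standard errors were the coefficient divided by the root of F. The common biological coefficient of variation was 0.101. RPKM used GENCODE 44 MANE Select lengths. Tables were prepared in Python 3.11.15 (pandas 2.3.3) and drawn with matplotlib 3.10.9.

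The genes and lists were chosen with earlier results of these data known. Named were all 10 family genes, NUAK2, nearest neighbours, the 3 nearest profiles of the highest and lowest family gene at 100 or more normalized counts, and per list up to 4 called genes of largest fold averaging 50 or more normalized counts in either group. SOX9, DPYSL3, MAP1B, the chromosome 17 keratins beyond that rule, and the markers at or under 3 counts were named after their values had been seen. Replicates of a group differed by more than sampling noise (chi-square per degree of freedom from 6.25 to 57.6). Alternatives were other scalings, filters and tests, single libraries left out, a replicate block, a prior count of 2 and exon-union lengths. Protein features were not analysed here, and 1 of the nearest profiles and 1 astrocyte marker are not reported here.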

Additional observations from a re-analysis of the deposited data

How the results depend on the processing

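Each of the 7 tested filament genes kept its direction under DESeq2 1.42.0, RLE and library-size scaling, no filter, 6 single-library omissions, a replicate block and a prior count of 2, and also with at least 10 counts in every library, a filter that NEFM did not pass. Only the call of NEFM was lost, when WT replicate 1 or either of NUAK2-CR replicates 1 and 2 was omitted. Replicate numbers gave no clear pairing of the libraries (correlations of same-numbered deviations 0.06, -0.08 and 0.09). WT replicates 1 and 3 correlated best with their own number in NUAK2-CR, though weakly, and WT replicate 2 with NUAK2-CR replicate 1 (0.05). With the replicate block NEFL stood at -3.49, GFAP at -2.56 and NEFM at -1.30. The family's calls did not change under that block, with 8167 genes called against 8107. At an absolute log2 fold change over 1, 4 of the family were lower and 1 higher, and with 10 counts in every library 187 differentially expressed genes were higher and 152 lower against 281 and 421, since genes near 0 in a group were removed, and 1 skeletal muscle gene was called higher against 2. With single libraries omitted, counts called higher ranged from 3 to 7 for keratins and other filament genes (7 without WT replicate 1). For modifying enzymes they ranged from 3 to 7 (3 without WT replicate 3 or NUAK2-CR replicate 1). For progenitor markers they ranged from 2 to 3, so no single omission gave the 4 called with all libraries. That count was 2 when WT replicate 1 or either of NUAK2-CR replicates 1 and 3 was omitted. The cause of these ranges was not tested. Chosen after seeing the data, the union of annotated exons as length gave shares in WT and NUAK2-CR of 50.2% and 76.6% for VIM, 12.1% and 8.83% for NES and 15.1% and 2.87% for NEFL, and 7.43% for GFAP in NUAK2-CR. Of 34 counts and shares compared, 19 stayed within 1.5 times or 1 SD. NEFH, DES and INA had too few reads to pass the filter, so no fold was given for them.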
